A study of Mus musculus with 15 samples.

Results

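The mitochondrial ribosomal proteins examined here were the protein-coding genes of the deposited gene count table whose GENCODE M21 symbol begins with Mrpl or Mrps followed by a number. The rule used names and no measured value, and it found 78 of the 22028 protein-coding genes in the table: 49 named for the large subunit (Mrpl) and 29 for the small subunit (Mrps). All 78 had at least 1 count in every library and all passed the low-count filter, so the counts given below are over all members.

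RNA was sequenced from CD8+ T cells sorted from spleen and lymph nodes, in 3 groups of 5 libraries each. Naive cells came from OT-I mice on the C57BL/6J background that received neither transfer nor stimulus. The other groups were OT-I cells transferred into C57BL/6J recipients and collected at day 4 by the labels, while the study's methods give a somewhat earlier time. Ag cells had met the SIINFEKL peptide, the ovalbumin fragment that the OT-I T cell receptor recognises, together with control rat IgG. Ag+Costim cells had met the same peptide together with agonist antibodies to the costimulatory receptors OX40 (CD134) and 4-1BB (CD137). All cells carried the OT-I receptor, with Rag1- or Rag2-deficient donors named in the study's methods. Mice of both sexes were used, and Naive libraries differ from the others in transfer and host as well as in antigen. The labels number the replicates without saying that each was a separate animal, while the study's figure legends describe its sequenced samples as biological replicates. The p-values measure the spread between these libraries, which may be partly technical.

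The mitochondrial ribosome translates the mRNAs that mitochondrial DNA encodes, all of which specify core subunits of the respiratory chain and ATP synthase. Its proteins are encoded in the nucleus, made in the cytosol and imported, while its rRNAs are transcribed from mitochondrial DNA. Activated T cells are known to grow, divide and expand their mitochondria.

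Library totals ran from 4865952 counts (Ag 3) to 25280667 counts (Naive 3), and members took between 0.407% and 0.801% of the counts. Levels are in CPM, the count scaled to its library's size with TMM factors, which serves to compare libraries for 1 gene, and in TPM, which also divides by transcript length and serves to compare genes. Cd8a and the Cd3 genes were present throughout, with CD8+ T cell markers (5 genes) summing to between 3217.0 and 6527.2 CPM. Ag 3 stood apart, with 16.9% of its sequenced reads counted on genes and 1308.8 CPM over 5 erythroid genes, which summed to at most 152.0 CPM elsewhere. The B cell markers (6 genes) summed to between 545.9 and 974.5 CPM in Naive and Ag+Costim. In Ag they summed to 1256.6, 603.2, 1352.2, 1506.4 and 708.2 CPM in libraries 1 to 5. Ighm made up most of the Naive and Ag+Costim sums, and the other B cell genes were low in Naive, so that the 6 genes had a median log2 fold change of 4.79 in Ag vs Naive (4 called higher) and of 1.80 in Ag+Costim vs Naive (1 called higher, Igkc). In bulk RNA, fewer cells of a type and less RNA per cell cannot be told apart.

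The promoter stretches below are the 250 bases before the RefSeq start of 6 members, on build GRCm38.p6 and in the direction of the gene. They are shown so that the genes with the largest increases between Naive and Ag+Costim (Mrps6, Mrpl27, Mrpl18 and Mrpl45) can be read beside members with a log2 fold change near 0 (Mrpl24 and Mrpl9); the latter were chosen after their values were seen. Capitals mark matches to 5 short letter strings, searched on both strands: CCGGAAG (an ETS core, the site type of GA-binding protein), GCATGCGC (an NRF1-type string), AAGATGGC (a YY1-type string), CACGTG (an E-box) and GGGCGG (a GC box).
Mrps6 (chr16:92058086-92058335, plus strand): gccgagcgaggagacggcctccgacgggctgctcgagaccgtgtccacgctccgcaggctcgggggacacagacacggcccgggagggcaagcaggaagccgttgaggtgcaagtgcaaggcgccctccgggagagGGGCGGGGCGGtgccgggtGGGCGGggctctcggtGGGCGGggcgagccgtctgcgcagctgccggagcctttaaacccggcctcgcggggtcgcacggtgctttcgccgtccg
Mrpl27 (chr11:94653541-94653790, plus strand): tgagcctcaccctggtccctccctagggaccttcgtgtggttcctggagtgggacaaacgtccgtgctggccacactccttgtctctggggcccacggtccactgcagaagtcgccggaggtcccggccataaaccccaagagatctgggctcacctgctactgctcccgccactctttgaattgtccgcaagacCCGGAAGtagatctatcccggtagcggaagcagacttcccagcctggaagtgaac
Mrpl18 (chr17:12916092-12916341, minus strand): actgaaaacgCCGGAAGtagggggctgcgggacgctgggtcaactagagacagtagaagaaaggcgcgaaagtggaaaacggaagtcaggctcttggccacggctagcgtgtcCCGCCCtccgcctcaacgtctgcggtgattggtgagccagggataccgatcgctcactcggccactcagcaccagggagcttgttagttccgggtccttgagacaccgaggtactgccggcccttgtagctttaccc
Mrpl45 (chr11:97315466-97315715, plus strand): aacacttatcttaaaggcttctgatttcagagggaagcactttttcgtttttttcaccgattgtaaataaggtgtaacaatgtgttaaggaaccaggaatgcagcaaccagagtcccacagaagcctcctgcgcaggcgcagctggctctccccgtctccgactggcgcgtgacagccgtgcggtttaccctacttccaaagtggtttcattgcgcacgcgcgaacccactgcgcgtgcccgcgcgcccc
Mrpl24 (chr3:87919294-87919543, plus strand): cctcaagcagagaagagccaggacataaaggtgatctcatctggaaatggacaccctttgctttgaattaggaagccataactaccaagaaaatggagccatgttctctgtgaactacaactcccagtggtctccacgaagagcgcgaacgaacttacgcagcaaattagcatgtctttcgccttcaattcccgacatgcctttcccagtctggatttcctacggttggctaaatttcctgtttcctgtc
Mrpl9 (chr3:94443086-94443335, plus strand): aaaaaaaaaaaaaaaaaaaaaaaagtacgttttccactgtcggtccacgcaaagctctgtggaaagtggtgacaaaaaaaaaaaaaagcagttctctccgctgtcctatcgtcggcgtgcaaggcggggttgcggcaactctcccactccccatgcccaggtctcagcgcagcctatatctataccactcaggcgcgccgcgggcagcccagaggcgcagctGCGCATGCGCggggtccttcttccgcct

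RefSeq and GENCODE M21 place some starts differently: the Mrpl18 stretch lies wholly inside the GENCODE gene given below, and those of Mrps6, Mrpl27, Mrpl24 and Mrpl9 reach into theirs. The Mrps6 stretch held 4 GC boxes, beginning 114, 109, 95 and 79 bases before the start, the first pair overlapping. The Mrpl27 stretch held an ETS core 55 bases before the start, and the Mrpl18 stretch held an ETS core at 240 bases and a GC box on the other strand at 137 bases. Mrpl9 held the NRF1-type string on both strands, at 26 and 28 bases, which is the same palindromic run. None of the 5 strings was found in the stretches of Mrpl45, which is among the members that rose most, and Mrpl24, which did not rise. RefSeq windows of 300 bases (250 before the start and 50 after) were at hand for 69 of the 78 members, in 75 windows, and for 32851 windows in all. The ETS core was in 34.7% of member windows and 8.86% of all windows, the NRF1-type string in 10.7% and 2.71%, and the YY1-type string in 16.0% and 2.75%. The E-box was in 9.33% of member windows against 7.15% of all, and the GC box in 52.0% against 35.7%. Member windows were also richer in G and C, with a median of 58.7% against 52.7%. The ETS core was in 36.0% of cytosolic ribosomal protein windows and in 21.5% of windows of nuclear oxidative phosphorylation subunits. Among members, the ETS core was in 18 of the 45 genes called higher in Ag+Costim than in Naive and in 8 of the 24 that were not. A match is a description of letters and was not tested as a binding site.

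Between genes, member transcripts covered a 35.1-fold range. The mean over all libraries had a median of 83.3 TPM, with similar medians for the large (83.6 TPM) and small subunit members (75.2 TPM). Mrpl33, the counterpart of a small bacterial large-subunit protein, was highest at 396.1 TPM, followed by Mrpl42 at 310.1 TPM, Mrps21 at 263.9 TPM, Mrpl18 at 256.2 TPM and Mrpl20 at 215.5 TPM. Mrpl47 was lowest at 11.3 TPM, with Mrps25 at 13.7 TPM, Mrpl19 at 17.6 TPM, Mrps35 at 17.8 TPM and Mrpl17 at 22.5 TPM above it. Across all members, 6 exceeded 200 TPM and 19 lay under 50 TPM. The order at the ends carries the spread of single genes, since Mrpl42 alone ranged from 165.9 to 464.7 TPM over the libraries and Mrpl33 from 203.8 to 686.8 TPM. Mrps25 shares 68.2% of its 50-base stretches with other genes, chiefly its overlapping neighbour Nr2c2, so its level is uncertain. The same holds for Mrpl53 (82%, with Gm42688) and Mrps34 (71.8%, with Mapk8ip3 and Nme3), named here for their sharing. Both are among the members called higher in Ag+Costim vs Naive below. No other member shares over 50%.

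The group mean was lowest in Naive for 72 of the 78 genes. It was highest in Ag+Costim for 65 genes, in Ag for 11 and in Naive for 2. Large subunit members summed to 2521.8, 3174.1, 2592.9, 2419.0 and 3577.6 CPM in Naive 1 to 5. They summed to 2661.7, 4901.4, 3604.9, 2559.3 and 6096.4 CPM in Ag 1 to 5. In Ag+Costim 1 to 5 they summed to 4358.5, 4320.6, 4231.3, 4825.0 and 4368.8 CPM. All 5 Ag+Costim libraries lay above all 5 Naive libraries, whereas Ag spanned from Naive levels to above Ag+Costim. Small subunit members followed the same order, with means of 1476.4 ± 193.0 CPM for Naive, 1962.9 ± 685.5 CPM for Ag and 2138.5 ± 97.4 CPM for Ag+Costim (SD, n = 5). The ratio of large to small subunit sums, grouped by symbol alone, stayed between 1.85 and 2.09 in all 15 libraries.

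**Figure D1:**
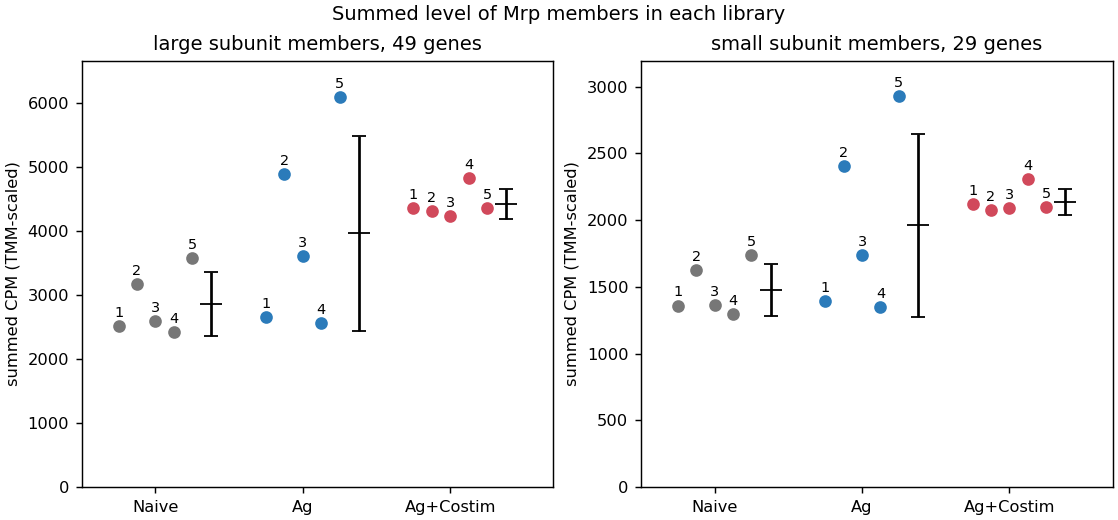
Summed CPM (TMM-scaled, linear axis from 0) of the large subunit members (left, 49 genes) and the small subunit members (right, 29 genes) in each library of the Naive, Ag and Ag+Costim groups, with points as libraries and the mean ± SD of 5 beside them. Ag+Costim libraries lie close together above all Naive libraries, and Ag libraries 2 and 5 lie above all Ag+Costim libraries.

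Within-group spread differed between the groups. The coefficient of variation of a member had a median of 15.9% for Naive, 36.1% for Ag and 6.50% for Ag+Costim. The Ag spread was carried by whole libraries and not by single genes. Ag 5 had the highest CPM of all 15 libraries for 72 of the 78 members and exceeded every Ag+Costim library for 73 of them, and Ag 2 did the latter for 43. Ag 1 and Ag 4 exceeded every Ag+Costim library for no member, and lay at or below the highest Naive library for 70 and 74 members. Ag 3 lay between, at or below the highest Naive library for 46.

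**Figure D2:**
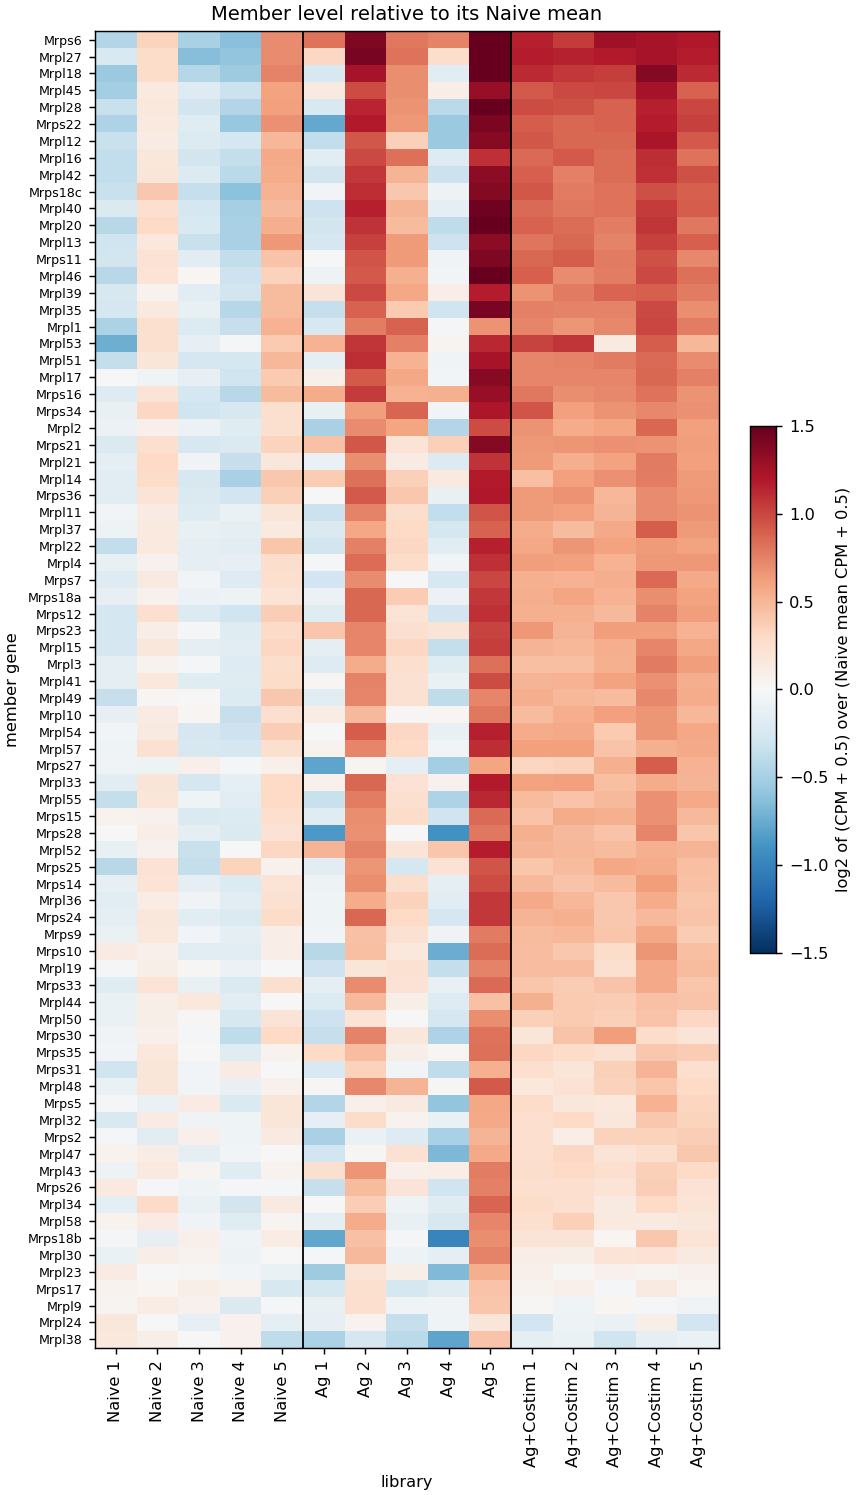
Each row is a member gene and each column a library. The colour is the log2 of the library's CPM (plus 0.5) over the gene's mean CPM in Naive (plus 0.5). Ag 2 and Ag 5 are raised across nearly the whole list, Ag 1 and Ag 4 look like Naive for most members, and the 5 Ag+Costim columns look alike.

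Library quality also differed between the libraries. Reads counted on genes made up 39.7, 38.2, 46.8, 41.1 and 46.5% of sequenced reads in Naive 1 to 5. They made up 37.4, 52.4, 16.9, 44.3 and 53.6% in Ag 1 to 5, and between 51.9 and 52.7% in Ag+Costim. The Ag libraries with the highest member sums (2 and 5) thus had the highest counted shares, and were also prepared from recorded input amounts of 1.4 and 1.8, against 10 for most other libraries (the labels give no unit). Naive and Ag+Costim do not overlap in the counted share, so group and library quality cannot be told apart. B cell marker sums ran the other way within Ag, highest in Ag 1, 3 and 4, and their part in the member levels was not tested.

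**Figure D3:**
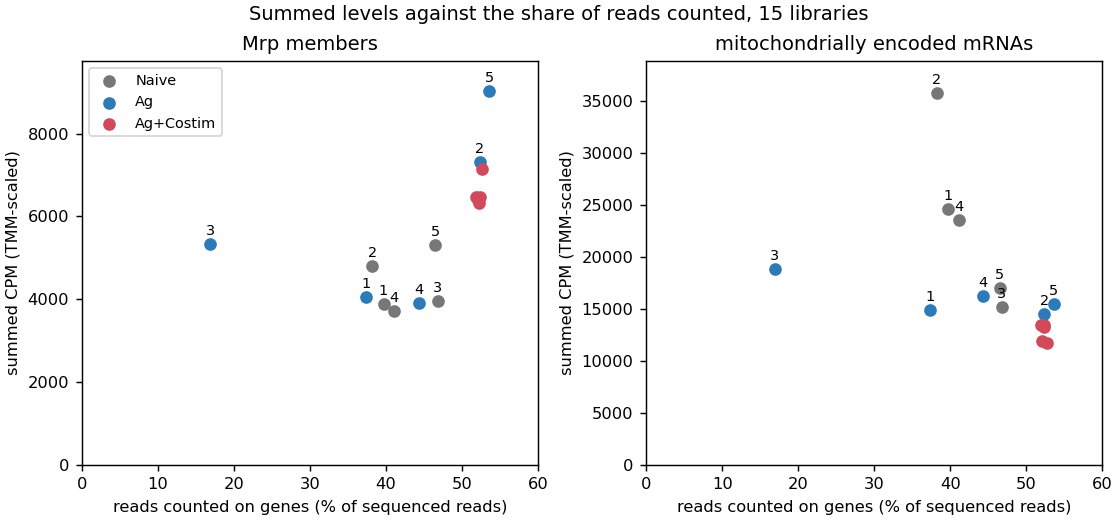
Summed CPM (TMM-scaled) of all 78 members (left) and of the 13 mitochondrially encoded mRNAs (right) against the percent of sequenced reads counted on genes, with 1 point per library coloured by group and linear axes from 0. Among Ag libraries, member sums of 7307.0 and 9025.1 CPM stand at counted shares of 52.4 and 53.6%, while Ag 3, at the lowest share of 16.9%, has a member sum of 5340.4 CPM.

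The comparison of Ag+Costim with Naive asks how cells that met antigen with OX40 and 4-1BB agonists differ from resting cells. Mitochondrial ribosomal protein mRNAs were broadly higher. Of the 78 members, 50 were called higher and 0 lower (edgeR quasi-likelihood test, FDR under 0.05), against 21.0% of all 17366 genes tested called higher and 23.6% lower. The median member log2 fold change was 0.57, against -0.08 over all genes, and 75 members lay above 0, against 46.7% of all genes. The 5 Ag+Costim libraries lay wholly above the 5 Naive libraries for 63 members and wholly below for 0, against 22.7% and 22.3% of all genes. At an unadjusted p under 0.05, 59 members were higher and 0 lower, against 26.1% and 29.6% of all genes. The changes were small, with 5 members at or above 2-fold, and 20 of the 50 calls had an FDR between 0.03 and 0.05. Calls covered 35 of the 49 large and 15 of the 29 small subunit members, and the difference between the subunits was not tested. Cell type markers also moved in this comparison, and their part in the member changes was not tested. All 5 CD8+ T cell markers had negative log2 fold changes (median -0.54, 3 called lower), as did both NK cell markers (median -3.93, 2 called lower) and the 5 erythroid genes (median -2.54, 0 called). The 5 myeloid markers had a median of 1.43 with 1 called higher.

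Mrps6, the small-subunit counterpart of bacterial S6, had the largest log2 fold change (gene ENSMUSG00000039680.10, chr16:92058270-92112227, plus strand, GRCm38). It stood at 24.0, 41.4, 23.2, 21.0 and 53.8 CPM in Naive 1 to 5 and at 57.8, 87.2, 57.1, 55.3 and 104.6 CPM in Ag 1 to 5. In Ag+Costim 1 to 5 it stood at 74.2, 68.3, 79.9, 77.9 and 75.7 CPM. Every library of both stimulated groups lay above every Naive library, and the groups with and without costimulation overlapped. The log2 fold change of Ag+Costim vs Naive was 1.20 (SE 0.262, FDR = 0.00633). Mrps6 shares 17.3% of its 50-base stretches with other genes, mainly the overlapping Gm49711 and Slc5a3, and the library kit does not mark strand.

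Mrpl27, whose bacterial counterpart reaches toward the peptidyl transferase centre, rose by the same amount (ENSMUSG00000024414.13, chr11:94653767-94660089, plus strand). Its levels were 32.0, 45.4, 24.0, 24.7 and 61.6 CPM in Naive 1 to 5, and 85.4, 84.3, 86.4, 89.2 and 85.8 CPM in Ag+Costim 1 to 5. In Ag 1 to 5 they were 46.5, 101.6, 66.6, 45.0 and 121.5 CPM. Naive and Ag+Costim did not overlap, while Ag 2 and Ag 5 exceeded every Ag+Costim library. The log2 fold change was 1.20 (SE 0.303, FDR = 0.0109). Here 26.9% of its 50-base stretches are shared, mainly with Gm6304.

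Mrpl18, a protein of the central protuberance of the large subunit, was the third most raised (ENSMUSG00000057388.9, chr17:12911349-12916345, minus strand). It measured 87.3, 155.8, 95.7, 88.9 and 214.8 CPM in Naive 1 to 5 and 280.2, 269.2, 263.5, 334.5 and 280.2 CPM in Ag+Costim 1 to 5. In Ag 1 to 5 it measured 108.4, 302.7, 209.5, 113.8 and 393.3 CPM. Naive 2 and Naive 5 were the highest of their group for all 3 of these genes and still lay below Ag+Costim. The log2 fold change was 1.15 (SE 0.35, FDR = 0.0207).

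Mrpl45, which sits near the exit of the nascent chain tunnel by the inner membrane, rose with a log2 fold change of 1.02 (SE 0.246, FDR = 0.0092). Its levels were 29.1, 46.0, 36.4, 33.1 and 63.4 CPM in Naive 1 to 5 and 79.3, 82.8, 83.8, 99.1 and 77.1 CPM in Ag+Costim 1 to 5. In Ag 1 to 5 they were 45.9, 82.3, 67.9, 44.6 and 103.4 CPM, so Ag covered the interval between the other groups. Mrpl28, a large subunit protein with a bacterial counterpart, rose with a log2 fold change of 1.01 (FDR = 0.025), from 50.6 to 105.6 CPM in Naive to 127.6 to 155.3 CPM in Ag+Costim.

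Members with assigned roles in the ribosome's working centres behaved unevenly. Mrpl12, of the stalk that recruits translation factors, rose from 52.3, 72.1, 57.2, 55.1 and 93.6 CPM in Naive 1 to 5 to 126.9, 120.0, 120.8, 154.9 and 125.5 CPM in Ag+Costim 1 to 5 (log2 fold change 0.97, FDR = 0.0247). Mrpl11 at the base of that stalk rose by 0.64 on the log2 scale (FDR = 0.0313). Mrpl2 and Mrpl3, near the catalytic core of the large subunit, rose by 0.67 (FDR = 0.0387) and 0.58 (FDR = 0.0228) on the log2 scale. Mrps12, a protein of the decoding centre, did not overlap between groups, at 37.8 to 60.2 CPM in Naive and 65.4 to 77.9 CPM in Ag+Costim, but missed the threshold (log2 fold change 0.59, FDR = 0.0615). Mrpl58, a peptidyl-tRNA hydrolase built into the large subunit, had a log2 fold change of 0.22 (FDR = 0.304) and measured 77.1 to 95.5 CPM in Naive and 96.4 to 112.7 CPM in Ag+Costim.

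The 3 Mrps18 paralogs are known to sit at different places in the ribosome, Mrps18a in the large subunit despite its name. Mrps18c rose with a log2 fold change of 0.89 (FDR = 0.0271) and Mrps18a with 0.60 (FDR = 0.0269), while Mrps18b measured 37.1 to 43.8 CPM in Naive and 41.4 to 53.7 CPM in Ag+Costim (log2 fold change 0.21, FDR = 0.502). Differences between the paralogs were not tested, and Mrps18b and Mrps18c share 30.2 and 22.9% of their stretches with other genes. Mrps22, a mitochondria-specific small subunit protein, rose with a log2 fold change of 0.99 (FDR = 0.0458), from 19.0 to 45.9 CPM in Naive to 51.9 to 64.8 CPM in Ag+Costim. Mrps36, now assigned to the oxoglutarate dehydrogenase complex and not to the ribosome, rose too (log2 fold change 0.64, FDR = 0.0352). Both Mrps36 and Mrps18a stay among the small subunit members here, which were grouped by symbol alone. Mrpl41 rose with a log2 fold change of 0.58 (FDR = 0.0261).

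Among called members the smallest increases were those of Mrpl44, an RNase III-like protein (log2 fold change 0.44, FDR = 0.0242), Mrpl19 (0.45, FDR = 0.0465), Mrps9 (0.47, FDR = 0.021), Mrpl36 (0.49, FDR = 0.0483) and Mrps14 (0.49, FDR = 0.0487). Mrpl44 measured 36.1, 41.2, 43.4, 34.4 and 38.6 CPM in Naive 1 to 5 and 56.1, 50.9, 50.7, 52.7 and 52.3 CPM in Ag+Costim 1 to 5. These groups did not overlap, and the change was small. Mrpl19 shares 37.0% of its stretches, mostly with its overlapping neighbour Gcfc2.

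Of the 28 members not called, 14 had every Ag+Costim library above every Naive library, Mrpl55 among them (24.9 to 39.4 CPM in Naive, 43.0 to 51.5 CPM in Ag+Costim, log2 fold change 0.54, FDR = 0.0986). The whole table held such genes too, with 3940 not overlapping and higher against 3648 called higher. Mrps2 and Mrps5 had log2 fold changes of 0.29 (FDR = 0.158) and 0.30 (FDR = 0.194). The 3 members with a negative log2 fold change, named after their values were seen, were Mrpl38 (-0.15, FDR = 0.501), Mrpl24 (-0.13, FDR = 0.366) and Mrpl9 (-0.02, FDR = 0.899). Mrpl24 stood at 77.5, 69.3, 63.4, 72.1 and 62.8 CPM in Naive 1 to 5 and at 56.4, 65.3, 64.2, 73.5 and 56.6 CPM in Ag+Costim 1 to 5. These ranges overlap, although Ag+Costim 1 and 5 lie below every Naive library, and scaling by library totals alone called Mrpl24 lower.

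**Figure D4:**
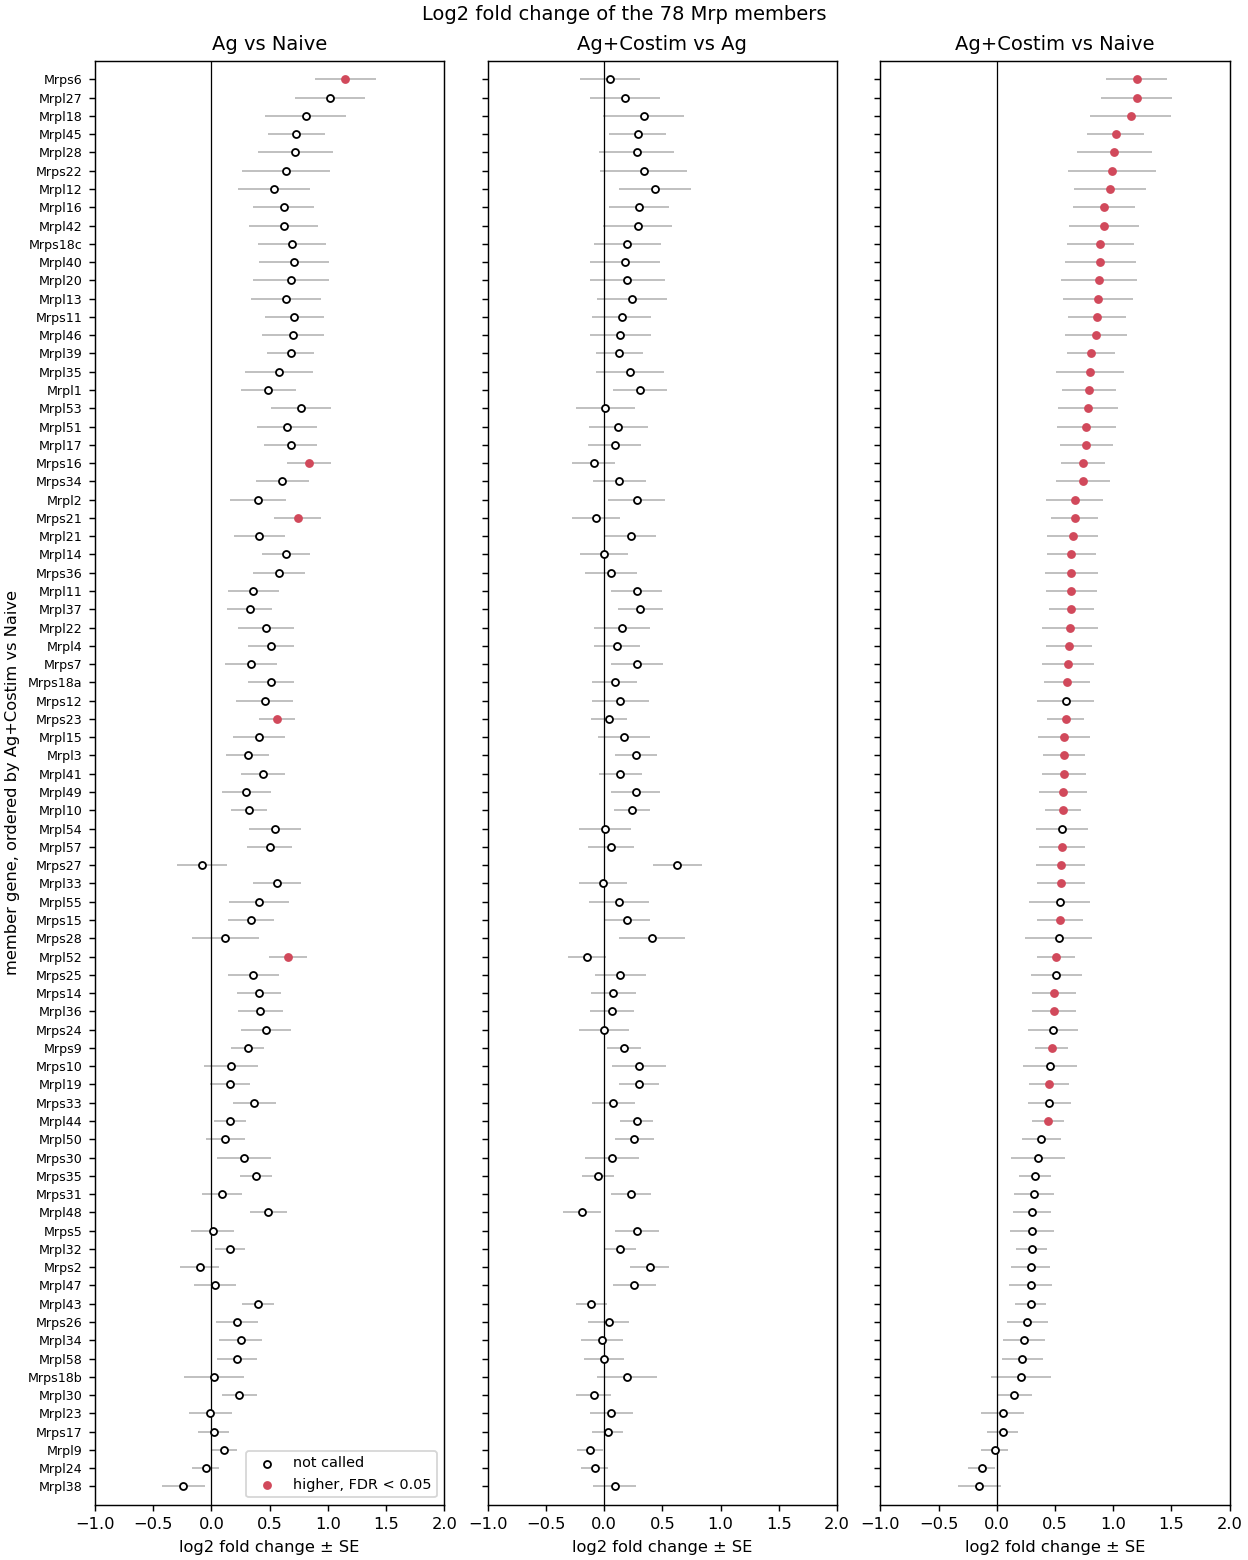
Log2 fold change ± SE of each of the 78 members in the 3 comparisons, ordered by Ag+Costim vs Naive, with called members marked. The left panel has 5 calls, the middle panel 0 and the right panel 50, and 3 members lie below 0 in the last.

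The count of 50 moved when libraries were left out in turn. It was 9, 36, 16, 8 and 52 without Naive 1 to 5, beside 1447, 2738, 1999, 1413 and 4604 genes higher over the whole table. Without Ag+Costim 1 to 5 it was 27, 27, 34, 37 and 23, beside 2524, 2488, 2683, 3179 and 2267 genes higher. The median of the members stayed between 0.54 and 0.67. Sequencing lane was partly shared between the groups, since all Naive libraries and Ag+Costim 4 and 5 ran on lane 3. Within lane 3 (5 Naive against 2 Ag+Costim libraries) 57 members were called higher and 0 lower, beside 2571 higher and 3772 lower of 18287 genes. With lane as a term in the fit, 0 were called, at a median log2 fold change of 0.63, beside 258 higher and 685 lower of 17366 genes. Without the low-count filter 24 were called, beside 2409 higher and 1749 lower of 48994 genes.

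Related genes outside the Mrp symbols moved unevenly in the same comparison, in which 21.0% of all genes were called higher and 23.6% lower. Of the 5 mitochondrial ribosome proteins with other symbols, 2 were called higher, Dap3 of the small subunit (log2 fold change 0.72, FDR = 0.00691) and Aurkaip1 (0.64, FDR = 0.0268). The median of the 5 was 0.45, and in all 5 the groups did not overlap. Among 15 mitochondrial translation factors 7 were called higher and 0 lower, led by the elongation factor Tsfm (1.07, FDR = 0.0167) and the release-factor family member Mtrf1 (1.04, FDR = 0.00517). Among 25 assembly factors 3 were called higher, including the small-subunit rRNA methyltransferase Tfb1m (0.69, FDR = 0.0267). Lower calls numbered 5 in that list, including Mettl17 (-0.94, FDR = 0.0076) and the large-subunit rRNA methyltransferase Mrm1 (-0.90, FDR = 0.00376). Of 20 genes charging mitochondrial tRNAs, 4 were called higher and 2 lower. The median of that list was 0.14, which turned to -0.02 when libraries were scaled by their totals alone. Of 6 mitochondrial transcription genes only Tfam, which packages mitochondrial DNA, was called (0.50, FDR = 0.0134). The assembly, tRNA-charging and transcription lists did not exceed the all-gene shares of higher or of lower calls.

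In Ag+Costim vs Naive, where the protein mRNAs of the mitochondrial ribosome were higher, the RNAs that it is built on and translates were lower. All 13 mitochondrially encoded mRNAs were called lower in Ag+Costim than in Naive, with a median log2 fold change of -0.89 (range -1.35 to -0.73). Their sums were 24560.2, 35770.4, 15214.6, 23511.6 and 16976.9 CPM in Naive 1 to 5 and 13411.0, 11888.0, 13461.4, 11663.8 and 13224.9 CPM in Ag+Costim 1 to 5. In Ag 1 to 5 they were 14889.0, 14461.5, 18789.0, 16217.3 and 15501.4 CPM, where member sums ran from 3908.0 CPM (Ag 4) to 9025.1 CPM (Ag 5). A relation between these sums across libraries was not tested. Naive and Ag+Costim did not overlap for any of the 13, and Naive varied 2-fold and more within itself. The rRNA genes mt-Rnr1 and mt-Rnr2, which a poly(A) library samples only in part, were lower by log2 fold changes of -1.69 (FDR = 0.00662) and -1.06 (FDR = 0.0161). All 13 mRNAs were also called lower by DESeq2 and under both other scalings, but 4 of 13 within lane 3 and 2 of 13 with lane as a term, where neither rRNA was called.

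For comparison, 49 of 73 nuclear oxidative phosphorylation subunits tested were called higher and 2 lower, with a median log2 fold change of 0.69. With lane as a term 0 of these 73 were called, at a median of 0.71. Of 85 cytosolic ribosomal proteins 4 were called higher and 15 lower, with a median of -0.06. Over all genes tested 21.0% were called higher and 23.6% lower, with a median of -0.08. The mitochondrial ribosomal proteins had a median near that of the respiratory chain genes and away from that of the cytosolic ribosome. No test between the lists was made.

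**Figure D5:**
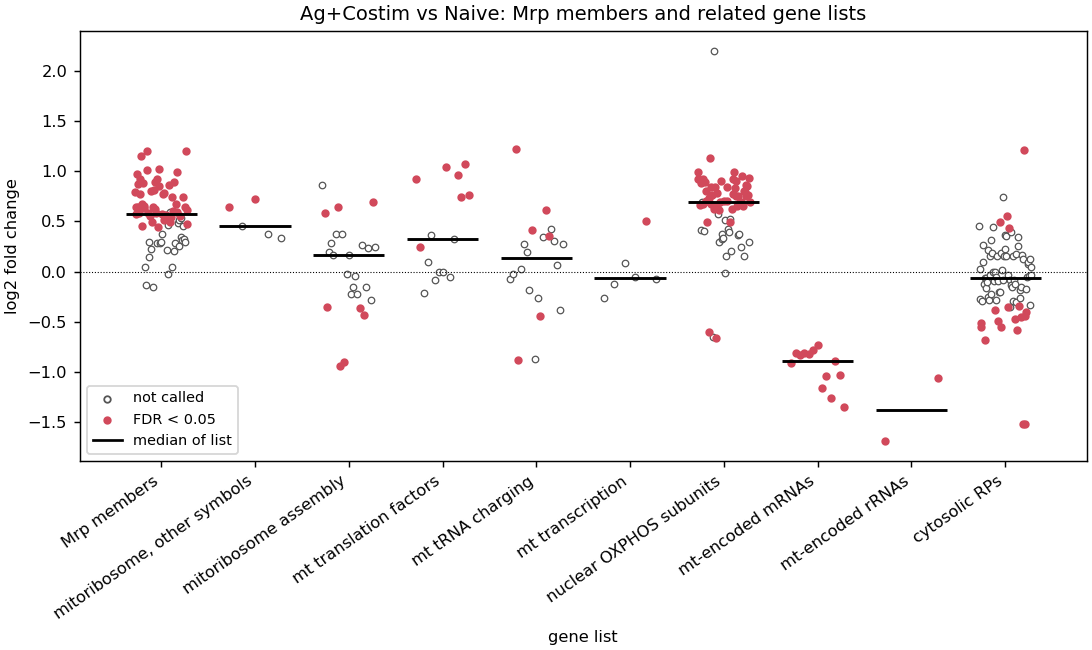
Log2 fold change of Ag+Costim vs Naive for each gene (point) of the Mrp members and related lists, with the list median as a bar. Medians are 0.57 for Mrp members, 0.69 for nuclear oxidative phosphorylation subunits, -0.06 for cytosolic ribosomal proteins and -0.89 for mitochondrially encoded mRNAs.

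The comparison of Ag with Naive asks about antigen without the agonist antibodies, and shares its Naive libraries with the comparison above. Of the members 5 were called higher and 0 lower, against 3.05% of all genes called higher and 3.66% lower. These were Mrps6, Mrps16, Mrps21, Mrpl52 and Mrps23. At an unadjusted p under 0.05, 33 members were higher and 0 lower, against 15.2% and 13.5% of all genes. The median log2 fold change was 0.42, against 0.08 over all genes, and 73 members lay above 0, against 55.8% of all genes. Of all members only Mrps6 and Mrps16 had Ag libraries wholly above Naive and none had them wholly below, against 1.76% and 2.09% of all genes.

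Mrps16, a small subunit protein known from an inherited mitochondrial disease, had the lowest FDR. It measured 59.4, 78.9, 56.8, 51.1 and 95.1 CPM in Naive 1 to 5 and 100.8, 141.7, 98.4, 99.0 and 169.1 CPM in Ag 1 to 5. All Ag libraries were above Naive, including Ag 1 and Ag 4, which lay within Naive levels for most members. The log2 fold change was 0.84 (SE 0.189, FDR = 0.0213), and Ag+Costim, at 108.9 to 120.6 CPM, lay within the Ag range. Mrps6 had a log2 fold change of 1.15 (SE 0.262, FDR = 0.0217) in this comparison.

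Mrps21, the counterpart of bacterial S21, measured 51.6, 70.8, 50.5, 51.4 and 75.5 CPM in Naive 1 to 5 and 81.5, 114.8, 69.0, 77.2 and 156.9 CPM in Ag 1 to 5 (log2 fold change 0.74, FDR = 0.0439). Mrpl52 measured 40.3, 45.8, 34.4, 43.5 and 54.2 CPM in Naive 1 to 5 and 62.3, 73.4, 50.1, 58.5 and 99.4 CPM in Ag 1 to 5 (log2 fold change 0.66, FDR = 0.0317). Mrps23 measured 53.3, 68.5, 62.9, 56.3 and 78.3 CPM in Naive 1 to 5 and 85.5, 106.4, 75.8, 72.8 and 129.0 CPM in Ag 1 to 5 (log2 fold change 0.56, FDR = 0.0453). In each of these 3 only the lower Ag libraries overlapped Naive, Ag 3 in all of them and Ag 4 also for Mrps23.

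The 5 calls rested on single libraries. Leaving out Ag 2, Naive 1, Naive 3 or Naive 4 left 0 calls, beside 260, 92, 93 and 103 genes higher over the whole table. Leaving out Ag 5 or Naive 2 left 2, beside 369 and 397 genes. Leaving out Ag 1, Ag 4 or Naive 5 gave 14, 19 and 15, beside 901, 904 and 2270 genes. Without Ag 3 and Naive 5 together 27 members were called higher, beside 2618 higher and 1327 lower of 17263 genes. All Ag libraries ran on lane 2 and all Naive on lane 3, so group and lane cannot be told apart.

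The comparison of Ag+Costim with Ag asks what the agonist antibodies added, and both of its groups also enter the comparisons above. No member was called by edgeR's quasi-likelihood test, against 0.0288% of all genes called higher and 0.00576% lower. DESeq2 called 1 member, Mrps27, beside 811 genes higher and 4743 lower over the whole table. At an unadjusted p under 0.05, 2 members were higher, Mrps27 and Mrps2, and 0 lower, against 7.28% and 19.5% of all genes. No member had groups that did not overlap, against 4.23% of all genes higher and 2.10% lower. The median log2 fold change was 0.14, against -0.10 over all genes, and 66 members lay above 0, against 42.1% of all genes.

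Mrps27, a pentatricopeptide-repeat protein of the small subunit, had the smallest p. It measured 16.7, 30.0, 26.6, 20.4 and 44.2 CPM in Ag 1 to 5 and 36.5, 37.2, 42.4, 55.2 and 42.0 CPM in Ag+Costim 1 to 5. Ag 5 alone reached into the Ag+Costim range. The log2 fold change was 0.63 (SE 0.212, FDR = 0.0963). In Naive 1 to 5 it measured 28.2, 27.6, 30.8, 28.6 and 30.8 CPM, below every Ag+Costim library (Ag+Costim vs Naive log2 fold change 0.55, FDR = 0.0477), and 15.2% of its stretches are shared with an overlapping gene. Mrps2 measured 27.7, 36.4, 34.0, 27.8 and 55.8 CPM in Ag 1 to 5 and 46.6, 41.8, 49.7, 49.8 and 50.7 CPM in Ag+Costim 1 to 5 (log2 fold change 0.39, FDR = 0.154). The next smallest p belonged to Mrpl44 (log2 fold change 0.28), Mrpl19 (0.30) and Mrpl37 (0.31), each with Ag libraries that overlapped Ag+Costim.

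This comparison depended on Ag 2 and Ag 5. Without Ag 5, 6 members were called higher, beside 756 higher and 2817 lower of 18108 genes. Without Ag 2, 2 members were called higher, beside 965 higher and 1714 lower of 18092 genes. Weighting libraries by their estimated quality in limma-voom called 68 higher, at a median of 0.63, beside 5437 higher and 5758 lower of 17366 genes.

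Transcript estimates showed how member counts divided between annotated forms. Retained-intron transcripts made up 8.71 ± 2.52% of member counts of Naive libraries, 5.71 ± 1.62% of Ag and 4.20 ± 0.451% of Ag+Costim libraries (SD, n = 5). Over all protein-coding genes tested the shares were 7.01, 4.91 and 3.39% in the same order. Transcripts marked for nonsense-mediated decay made up 2.59, 2.60 and 2.76% of member counts, against 2.36, 1.77 and 1.58% over all genes. Protein-coding transcripts made up 86.2, 89.6 and 91.1% of member counts. The share of reads counted on genes differed between these groups as given above, and its part in these shares was not tested.

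No change of transcript usage was called for any of the 64 members tested (edgeR diffSpliceDGE, FDR under 0.05), against 0.640% of genes for Ag vs Naive, 0.947% when Ag+Costim was compared with Ag and 1.23% when it was compared with Naive. Members at an unadjusted p under 0.05 numbered 6, 1 and 15 in that order, beside 469, 709 and 1178 of 7501 genes. Mrps12, the decoding-centre protein, and Mrpl32 had the widest shifts of mean share. Transcript Mrps12-201 made up 48.8, 44.9, 50.6, 38.6 and 78.5% of the gene in Naive 1 to 5 and 67.2, 91.3, 83.0, 95.3 and 74.4% in Ag+Costim 1 to 5. In Ag 1 to 5 it made up 59.7, 83.7, 93.1, 93.4 and 95.9%, and Mrps12-204 took nearly all of the rest in every library. Naive 5 lay within the range of the other groups, and the gene's FDR was 0.863 in Ag vs Naive and 0.621 in Ag+Costim vs Naive. Mrpl32-202 moved from 54.2 ± 13.8% in Naive to 87.3 ± 4.98% in Ag+Costim as the retained-intron form Mrpl32-204 went from 33.9 to 11.3% (FDR = 0.44). Mrps2-201 moved from 61.6 ± 17.8 to 92.3 ± 4.43% (FDR = 0.281).

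Other members with wide shifts of share were Mrpl33 and Mrpl48 in Ag vs Naive and Mrpl28 and Mrps10 in Ag+Costim vs Ag, none of them called. Mrpl33-201 averaged 43.0% in Naive and 66.4% in Ag, Mrpl48-208 averaged 64.4% and 87.2%, and Mrps10-204 averaged 63.6% in Ag and 84.2% in Ag+Costim. Mrpl28 counts were divided mostly between Mrpl28-201 and Mrpl28-206, with Mrpl28-201 at 0.00, 88.8, 0.00, 0.00 and 49.6% in Ag 1 to 5. Libraries of the same group thus stood far apart for these forms, which are 1068 and 1046 bases long.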

How the data were processed

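Poly(A) RNA of 15 libraries was converted with SMART-Seq v4 and Nextera XT and sequenced as single reads. The authors aligned the reads to mm10 with HISAT2 2.1.0, handled alignments with SAMtools 1.9 and estimated transcripts with StringTie 2.1.0, as named in the submitters' processing notes. The deposited gene and transcript tables hold estimated counts in whole numbers. The deposited quality table holds sequenced read counts and percent values, which were used as given. The deposited FPKM table was not used, because its columns for Ag 1 and Naive 5 are identical.

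Entries were matched to GENCODE M21 (55536 of 81881 gene entries). Entries named by a number alone held 0.0818% of counts and were left out. Genes passing filterByExpr (17366) were tested with edgeR 4.0.16 under R 4.3.3 (TMM, robust quasi-likelihood fit of group means over all 15 libraries, Benjamini-Hochberg FDR threshold 0.05), which had a common biological coefficient of variation of 0.431. Transcript usage was tested with diffSpliceDGE, where a call also needed a change of at least 0.1 in mean transcript share. TPM was computed from the transcript table. The scripts were tested on simulated data. Depth limits genes with few counts most, and no library pair of a group differed by so little as to be the same library. DESeq2 1.42.0 and limma 3.58.1 served as alternatives, among those whose effect is given in the closing section.

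Members named in the text were, by rule, the 5 largest and the 5 smallest fold changes among called members of a comparison, the 5 with the smallest p where fewer than 3 were called, the 5 highest and 5 lowest by TPM, those with the largest shifts of transcript share, and a fixed list of 16 with assigned roles. The members and the related gene lists were chosen with earlier results of these data known. Promoter sequences came from RefSeq on GRCm38.p6. Shared stretches are the percent of a gene's 50-base transcript windows that also occur in another gene's transcripts.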

Additional observations from a re-analysis of the deposited data

Results flagged for a closer look

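In 5 of 129 groups of 5 values, the highest or lowest library lay so far from the others that its gap to the nearest exceeded Dixon's 95% critical value of 0.71 of the range. Chance flags about 1 group in 20. All 5 concerned the same library, Ag+Costim 4, as the highest of its group. Its summed CPM of large subunit members was 4825.0, against 4231.3 to 4368.8 in the other Ag+Costim libraries. Its summed CPM of small subunit members was 2310.7, against 2077.4 to 2118.5. Mrpl12 stood at 154.9 CPM against 120.0 to 126.9, Mrpl17 at 108.9 CPM against 99.3 to 101.0, and Mrpl18 at 334.5 CPM against 263.5 to 280.2. These values are not independent, since the genes are part of the sums.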

How the results depend on the processing

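Of the member medians and the named members' fold changes that were recomputed, none turned in direction under the alternatives run. Some medians of related lists did turn, among them that of the tRNA-charging genes given above. In Ag vs Naive, the median of the mitochondrial ribosome proteins with other symbols went from 0.39 to -0.09 with limma-voom. Single fold changes in Ag vs Naive were followed for the 5 called members only. limma-voom called 8 members lower in that comparison, beside 2147 genes over the whole table. There the main fit called 0 members lower and had 73 of the 78 above 0, so some other members did turn. In Ag+Costim vs Naive, the count of 50 members called higher was 49 with DESeq2, 50 with RLE scaling and 42 with library totals alone (which called 1 lower, Mrpl24). These settings called 3901, 3604 and 3016 genes higher over the whole table. Without the low-count filter the member count was 24, at a median log2 fold change of 0.75, and with lane as a term 0. limma-voom with quality weights called 72 higher and 2 lower (Mrpl24 and Mrpl38), beside 6418 higher and 7107 lower of 17366 genes. Without Ag 3 and Naive 5 together, 60 were called, at a median of 0.74, beside 5410 higher and 4693 lower of 17263 genes. Leaving out each library in turn gave 8 to 52 calls and medians of 0.54 to 0.67.

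In Ag vs Naive, 5 members were called higher. The count was 11 with DESeq2, 0 without the filter, 0 with only the 10 libraries compared, 0 with lane as a term, 10 with limma-voom (8 lower, at a median of 0.08 against 0.42), and 27 without Ag 3 and Naive 5. In that order the whole table had 1102, 49, 0, 0, 1873 and 2618 genes higher, with 2147 lower by limma-voom. Leaving out each library in turn gave 0 to 19 calls and medians of 0.22 to 0.56.

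In Ag+Costim vs Ag, 0 members were called. DESeq2 called 1 and limma-voom 68, at a median of 0.63. Leaving out each library in turn gave 0 to 6 calls and medians of 0.03 to 0.37. In transcript usage, dropping the minimum share called 2 members in Ag vs Naive and the same 2 in Ag+Costim vs Naive (Mrpl58 and Mrps18b). Over the whole table that setting called 107 and 180 of 7501 genes. limma's diffSplice called 2 (Mrpl13 and Mrps12) and 7, beside 136 and 682 of 7501 genes. Leaving out libraries gave 0 to 1 in Ag vs Naive, the 1 being Mrpl42 without Ag 5, beside 81 of 7812 genes. The cause of these shifts was not tested.

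Whether replicate numbers pair the libraries was not tested. Deviations of same-numbered libraries correlated at -0.324 to 0.47, and 5 of 15 pairs lay over 0.1. Of the 15 libraries, 6 correlated best with their own number. Pairs of Naive with Ag stood at 0.421, 0.470 and 0.405 for replicates 1, 4 and 5, and at -0.118 and -0.324 for replicates 2 and 3. With the replicate number as a block, 56 members were called in Ag+Costim vs Naive, 9 in Ag vs Naive and 0 in Ag+Costim vs Ag. Beside these stood 4066, 755 and 0 genes called higher over the whole table.

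Limits: all-gene median log2 fold change moved from -0.08 to -0.23 in Ag+Costim vs Naive under library totals alone, and the members' from 0.57 to 0.42. CPM by library totals put the Ag+Costim mean of the small subunit sum at 2026.5, against 2138.5 with TMM. The low depth of Ag 3 limits its values most.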
